A study of Mus with 3 samples.

Results

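The genes described here are 49 genes of the cell cycle, of 32285 genes in the count matrix. They were chosen as a fixed list of gene names and were kept apart by the phase in which their transcripts are known to peak. The S phase list holds 23 genes and the G2/M list holds 23 genes. Stmn1, Hmgb2 and Tubb5 are the remaining 3 members, and they were kept out of the sums because many cells that do not divide also express them. Some genes in the sums were also found in many cells. All 49 genes were in the matrix.

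The cells came from tumors of MC38, a mouse colon carcinoma line, taken on day 16 after injection into WT, RARα-KO or RARα-TG mice. RARα is a nuclear receptor for retinoic acid. RARα-KO mice lose a part of Rara through a Cre driven by the distal promoter of Lck, and RARα-TG mice carry Rara behind the CD2 promoter. Both changes reach CD4 as well as CD8 T cells. The sort took 30000 T cells (CD45.2+ CD3+) per genotype together with 10000 cells of any kind, and an antibody hashtag marked the genotype before all cells were pooled into 1 single-cell library of RNA and T cell receptor (TCR) transcripts. The number of mice per genotype and the control strain behind WT were not given in the sources used here, and the tissue and cell type fields of the labels name spleen and naive CD8 T cells where the protocols describe tumors. Each genotype was 1 sample, so none of the differences below has a replicate check and none was tested. Intervals are 95% intervals and cover counting error only.

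A dividing cell copies its DNA in S phase and separates the copies in mitosis after G2. E2F factors and cyclin E drive entry into S phase. The MCM helicase is loaded before S phase and fired within it, when nucleotides are also made. Cyclins A and B with Cdk1 then drive mitosis, which ends when the anaphase-promoting complex (APC/C) marks cyclin B and other proteins for destruction. Activated CD8 T cells are known for fast division during clonal expansion, so transcripts of both phases are commonly used to find dividing T cells.

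Cells were assigned to classes without the 49 genes. Cytotoxic T cells (CTLs) had a TCR clonotype, 1 or more Cd8a UMIs (unique molecular identifiers, which count captured transcripts) and no Cd4 UMI. CTLs numbered 798, 993 and 95 for WT, RARα-KO and RARα-TG in turn, and values given by 3 below follow this order. Where 2 log2 ratios of CPM are given, they are RARα-KO and then RARα-TG, each against WT. CD4 T cells without a Foxp3 UMI numbered 89, 151 and 100, and CD4 T cells with Foxp3, the factor that defines regulatory T cells, numbered 107, 79 and 142. A Foxp3 transcript can be missed, so the cells without it may include regulatory T cells. All T cells summed to 7728856, 8898981 and 2908101 UMIs, and values of RARα-TG CTLs rest on 504729 of them. Rara was at 84.1, 77.6 and 243 CPM (UMI counts scaled to a common total of gene UMIs of the same cells) in all T cells. The level in RARα-TG was above the others, and the count of the whole gene did not show the partial deletion in RARα-KO.

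Outside T cells, a macrophage-like cluster held 75, 115 and 34 cells without a clonotype. The cluster expected to hold the MC38 cells went against that name. Its 6 epithelial markers (Krt8, Krt18, Krt19, Krt7, Epcam and Cdh1) were between 0 and 0.600 CPM, Krt18 being at 0, while Col3a1 was at 1363 CPM and Gsn at 1147 CPM. It is called Ccn1/Col3a1 cells here, after its leading genes, and held 271, 126 and 16 cells without a clonotype. Whether these are tumor or stromal cells cannot be told apart from these markers. Before genotypes were assigned, 29 cells of the macrophage-like cluster and 35 of the Ccn1/Col3a1 cluster had a clonotype. The T cell classes did not require a T cell cluster (a cluster with a clonotype in over 50% of its cells), so such cells could enter them.

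In CTLs the S phase list was at nearly the same level in the 3 genotypes. The G2/M sum was level between WT and RARα-KO, which depended on the setting, and lower in RARα-TG. The summed S phase genes were at 1362 (1331 to 1393), 1326 (1298 to 1353) and 1339 (1240.3 to 1444) CPM, with exact Poisson intervals. The log2 ratio of CPM was -0.039 (-0.083 to 0.0057) for RARα-KO against WT and -0.024 (-0.14 to 0.090) for RARα-TG against WT, with exact binomial intervals. The G2/M genes were at 726 (704 to 749), 743 (722 to 764) and 594 (529 to 666) CPM. Their log2 ratio was 0.033 (-0.028 to 0.093) for RARα-KO and -0.29 (-0.46 to -0.12) for RARα-TG. The RARα-TG values rest on 676 S phase and 300 G2/M UMIs, against 7539 and 4021 in WT. Part of the lower G2/M sum of RARα-TG lies in Cenpa, which is described below. For RARα-KO the G2/M log2 ratio was -0.30 with equal weight for each cell. It was -0.46 (-0.55 to -0.38) without the 5% of cells with the most UMIs. The level G2/M sum of RARα-KO thus depended on the weighting and on the deepest cells.

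**Figure D1:**
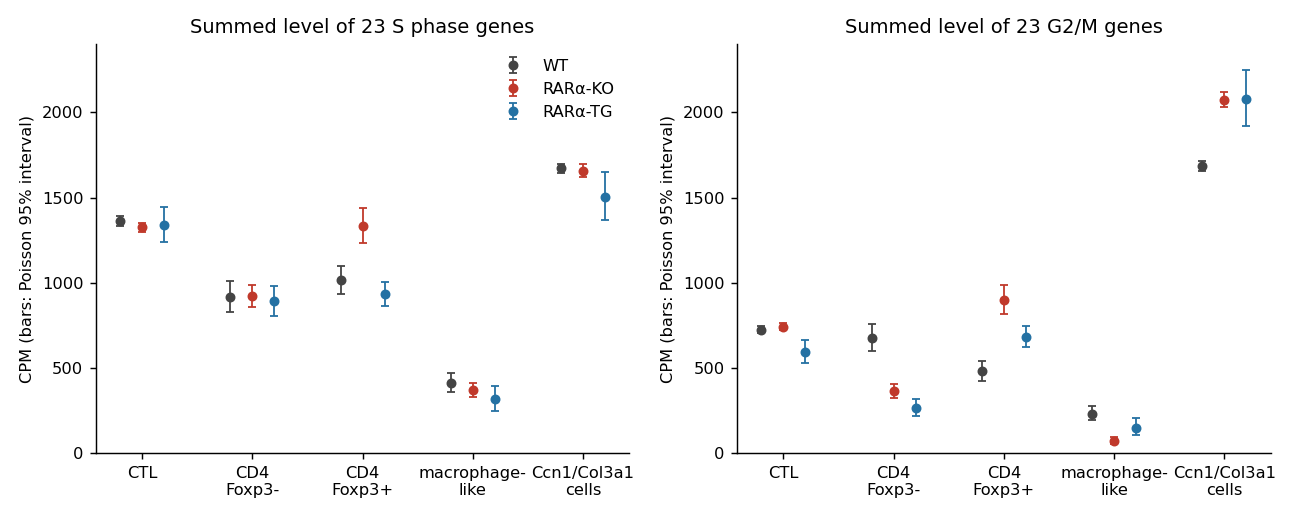
Summed level of the S phase genes (left) and the G2/M genes (right) in CPM for 5 cell classes, with 1 point per genotype and bars for the Poisson 95% interval. CTLs of the 3 genotypes sit close together for S phase genes, while for G2/M genes WT is the highest genotype among CD4 T cells without Foxp3 and the lowest among those with Foxp3.

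Among the S phase genes, the sums of the role groups were close between RARα-KO and WT CTLs. The 6 subunits of the MCM helicase, which unwinds DNA ahead of the replication fork, summed to 429, 408 and 466 CPM, with log2 ratios of -0.074 (-0.15 to 0.0064) and 0.12 (-0.083 to 0.31). Mcm6 (ENSMUSG00000026355, chromosome 1, 128331575 to 128359705 in GRCm38) was at 115, 124 and 107 CPM, with log2 ratios of 0.10 (-0.050 to 0.25) and -0.11 (-0.54 to 0.29). Mcm4 had the highest log2 ratio of the passing S phase genes in RARα-TG, 0.40 (-0.018 to 0.80), at 87.1, 76.9 and 115 CPM. The intervals of the helicase sum and of Mcm6 held 0 in both comparisons.

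Cdc6 and Cdt1 load the helicase, and Cdc45 and Gins2 take part in its active form. These 4 genes summed to 87.2, 88.6 and 59.4 CPM, with log2 ratios of 0.022 (-0.15 to 0.20) and -0.55 (-1.14 to -0.021). Cdt1 was at 37.6, 36.5 and 43.6 CPM and was not lower in RARα-TG. Cdc6 had the highest log2 ratio of the S phase genes in RARα-KO, 0.36 (-0.088 to 0.81), at 12.8 (71 UMIs in 44 cells), 16.4 (110 UMIs in 47 cells) and 5.94 (3 UMIs in 3 cells) CPM. Gins2 had the lowest log2 ratio in RARα-TG, -1.62 (-3.52 to -0.23), at 24.4 (135 UMIs in 78 cells), 20.7 (139 UMIs in 84 cells) and 7.93 (4 UMIs in 4 cells) CPM. A few UMIs in a few cells thus set both values in RARα-TG.

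The summed transcripts of the nucleotide supply group were also lower in RARα-TG. Tyms and Tk1 serve the making of thymidine nucleotides, and Rrm1 with Rrm2 form ribonucleotide reductase, which makes deoxynucleotides. Together they were at 253, 243 and 182 CPM, with log2 ratios of -0.059 (-0.16 to 0.046) and -0.47 (-0.79 to -0.17). Rrm2 was at 87.6 (72 cells), 78.3 (88 cells) and 45.6 (7 cells) CPM, and its log2 ratios were -0.16 (-0.34 to 0.019) and -0.94 (-1.61 to -0.34). Of this group, only Rrm2 was called lower in RARα-TG by the count rule given below.

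The replication clamp Pcna and a group of chromatin and S phase partners (Pclaf, Uhrf1, Slbp, Esco2 and Fbxo5) summed to 547, 545 and 596 CPM. Slbp, which binds the stem-loop of histone transcripts, was at 199, 208 and 219.9 CPM, with log2 ratios of 0.065 (-0.050 to 0.18) and 0.14 (-0.15 to 0.43). The 2 cyclin E genes and E2f1 summed to 45.2, 41.0 and 35.7 CPM. E2f1, a transcription factor that turns on S phase genes, had the lowest log2 ratio of the S phase genes in RARα-KO, -0.49 (-0.87 to -0.12), at 23.5 (130 UMIs), 16.7 (112 UMIs) and 21.8 (11 UMIs) CPM.

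A gene was called higher or lower if its CPM differed by 1.5-fold or more and at least 10 UMIs were expected in the shallower group at the pooled rate. For RARα-KO against WT CTLs, 23 of 23 S phase genes passed this filter, with 0 higher and 0 lower, where 8.03% of all 10459 genes that passed were higher and 6.26% lower. Their median log2 ratio was -0.044, against 0.016 over all genes. For RARα-TG, of 23 S phase genes 17 passed, with 0 higher and 2 lower (Gins2 and Rrm2), where 9.34% of all 5579 genes that passed were higher and 14.9% lower. Their median log2 ratio was 0.050, against -0.031 over all genes. Pcna and Tyms have pseudogenes named after them, so their counts could hold reads of those copies, and the same holds for Ccnb1, Ccnb2 and Stmn1.

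For RARα-KO CTLs, of 23 G2/M genes 23 passed, with 2 higher (Plk1 and Ccnb1) and 0 lower, where the shares of all genes were 8.03% and 6.26%, with a median log2 ratio of 0.061. Each gene was also counted without the 1 cell with the most UMIs of that gene in each group, an alternative chosen after seeing the data, and 0 of the 2 RARα-KO genes were then called, while Bub1b was newly called higher. For RARα-TG, 12 passed, with 1 higher (Kif23) and 5 lower (Kif11, Ccna2, Birc5, Cenpa and Ccnb2), where the shares of all genes were 9.34% and 14.9%, with a median of -0.51. The genes that passed in RARα-TG are those with the most counts, so their number says nothing of the other 11. Without the cell with the most UMIs of the gene in each group, 4 of the 5 lower genes and the higher gene were called the same way. With newly called genes, 7 G2/M genes were then lower and 1 was higher.

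The cyclins A and B with Cdk1 summed to 106, 108 and 65.4 CPM, with log2 ratios of 0.033 (-0.13 to 0.19) and -0.69 (-1.24 to -0.19). Ccna2 (cyclin A2) was at 40.1 (222 UMIs), 43.4 (291 UMIs) and 19.8 (10 UMIs) CPM, with log2 ratios of 0.11 (-0.14 to 0.37) and -1.02 (-2.10 to -0.11). Ccnb1 (cyclin B1), one of the called genes in RARα-KO, was at 6.14 (34 UMIs), 9.84 (66 UMIs) and 5.94 (3 UMIs) CPM, and its log2 ratio was 0.68 (0.063 to 1.32). Of these UMIs 22 came from 1 RARα-KO cell, and without the top cell of each group the ratio was 0.24 (-0.45 to 0.95), which was not called. The sum was lower in RARα-TG and close to WT in RARα-KO.

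The mitotic kinases Aurka, Aurkb and Plk1 with Birc5 (survivin, which forms the chromosomal passenger complex with Aurkb) summed to 76.8, 92.3 and 37.6 CPM, with log2 ratios of 0.27 (0.086 to 0.45) and -1.03 (-1.77 to -0.37). Birc5 was at 50.9 (282 UMIs), 61.9 (415 UMIs) and 27.7 (14 UMIs) CPM, with log2 ratios of 0.28 (0.059 to 0.50) and -0.88 (-1.77 to -0.11). Plk1, a kinase of mitotic entry and exit, had the highest log2 ratio of the G2/M genes in RARα-KO, 0.72 (0.079 to 1.39), at 5.60 (31 UMIs), 9.25 (62 UMIs) and 1.98 (1 UMI) CPM. Here 18 UMIs came from 1 RARα-KO cell, and without the top cell of each group the ratio was 0.48 (-0.25 to 1.24), which was not called either. The sum of this group was above WT in RARα-KO and below it in RARα-TG. Birc5 was found in 68 of 798 WT and 72 of 993 RARα-KO CTLs, so its share of cells was not higher in RARα-KO.

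Cdc20 and Ube2c, an activator and a ubiquitin-conjugating enzyme of the APC/C, summed to 57.8, 71.6 and 61.4 CPM. Ube2c (ENSMUSG00000001403, chromosome 2, 164769929 to 164772902) was at 48.6 (75 cells), 62.6 (66 cells) and 47.6 (8 cells) CPM, with log2 ratios of 0.37 (0.14 to 0.59) and -0.031 (-0.70 to 0.57). A single cell held 145 of its 420 UMIs in RARα-KO and 58 of 269 in WT, and without the top cell of each group the RARα-KO ratio was 0.11 (-0.16 to 0.37). Bub1b, a kinase of the spindle checkpoint, was at 6.32 (35 UMIs), 8.50 (57 UMIs) and 7.93 (4 UMIs) CPM, and its log2 ratio for RARα-KO was 0.43 (-0.20 to 1.08), or 0.61 (-0.088 to 1.35) without the top cells, which was then past 1.5-fold.

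Cenpa (ENSMUSG00000029177, chromosome 5, 30666877 to 30674837), the histone H3 variant that marks centromeres, was at 149.9 (335 cells), 137 (396 cells) and 89.2 (29 cells) CPM, with log2 ratios of -0.13 (-0.27 to 0.0062) and -0.75 (-1.22 to -0.32). It was found in more CTLs than Ube2c in each genotype and had the most UMIs of the G2/M genes in WT CTLs. The lower G2/M sum of RARα-TG thus lies in part in this gene, while Top2a and Mki67 were nearer to WT. Kif23, a kinesin of the central spindle, was on the other side of WT in RARα-TG, with a log2 ratio of 1.12 (0.41 to 1.78), at 20.9 (81 cells), 21.6 (99 cells) and 45.6 (19 cells) CPM. Kif11, the kinesin that pushes spindle poles apart, had the lowest log2 ratio in RARα-TG, -1.21 (-2.86 to 0.049), at 22.9 (127 UMIs), 27.1 (182 UMIs) and 9.91 (5 UMIs) CPM. Tpx2, a spindle assembly factor, had the lowest log2 ratio in RARα-KO, -0.43 (-0.78 to -0.071), at 25.6, 19.1 and 17.8 CPM. Members of the spindle group thus lay on both sides of WT.

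Top2a (topoisomerase IIα, which untangles the copied DNA) was at 109.6, 97.5 and 103 CPM, with log2 ratios of -0.17 (-0.33 to -0.0070) and -0.090 (-0.53 to 0.32). Mki67, the usual marker of dividing cells, was at 72.8, 75.9 and 67.4 CPM, with log2 ratios of 0.061 (-0.13 to 0.25) and -0.11 (-0.66 to 0.39). Neither was called in RARα-KO or RARα-TG CTLs.

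The 3 members kept apart did not follow the G2/M sum in RARα-TG CTLs. Hmgb2, a chromatin protein that bends DNA, was at 568, 624 and 798 CPM, with log2 ratios of 0.13 (0.067 to 0.20) and 0.49 (0.34 to 0.64). Stmn1 (stathmin, which takes microtubules apart) was at 106, 92.6 and 153 CPM. It was found in 131 of 798 WT CTLs, fewer than Slbp (494 cells), Cenpa (335 cells) and Pcna (291 cells) of the sums. Tubb5, a β-tubulin, was at 524, 440.3 and 507 CPM. With these 3 genes in the sum, the G2/M log2 ratio of RARα-TG against WT CTLs was 0.093 (-0.00071 to 0.18). This interval held 0, so the lower G2/M sum depends on leaving these genes out.

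**Figure D2:**
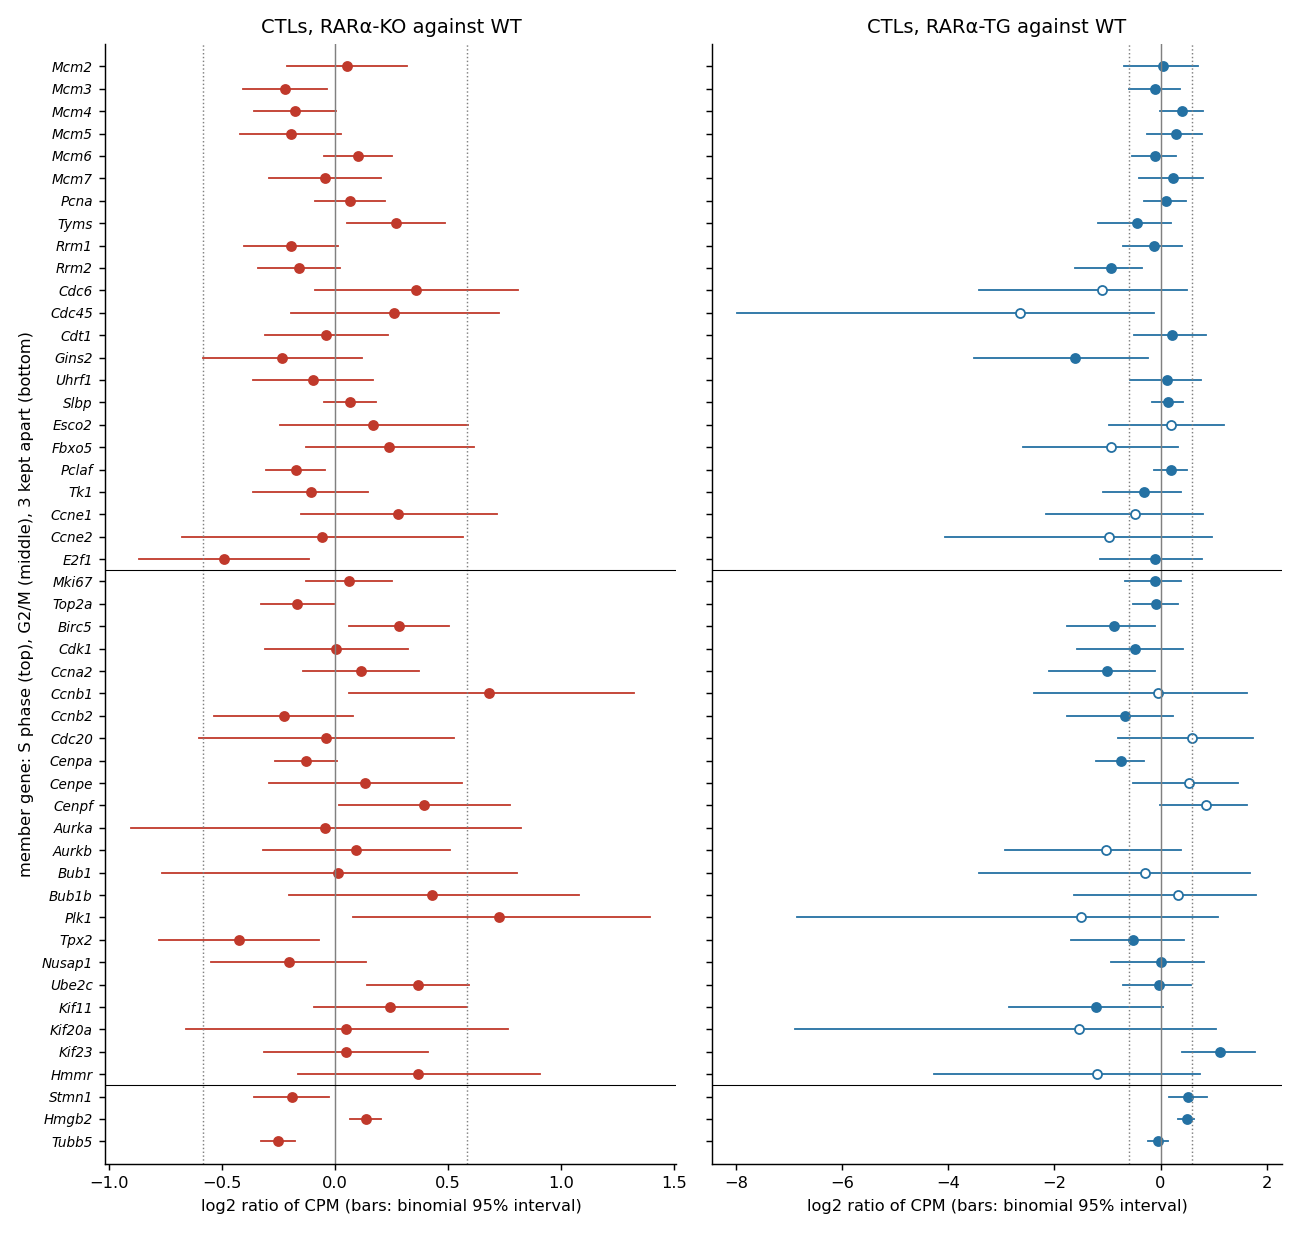
log2 ratios of CPM in CTLs for the 49 members, RARα-KO against WT (left) and RARα-TG against WT (right, on a different axis range), with bars for the binomial 95% interval, filled points for genes that passed the count filter, open points for the others and dotted lines at 1.5-fold. Aurka has no point on the right because its 0 UMIs in RARα-TG gave no bound, and only Plk1 and Ccnb1 lie past the dotted lines on the left among genes that passed.

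The sums rest on few cells. The 10% of CTLs with the most UMIs of the list held 69.7%, 71.1% and 62.0% of the S phase UMIs, and 80.8%, 84.5% and 83.3% of the G2/M UMIs. No G2/M UMI was found in 40.5%, 45.0% and 49.5% of CTLs. A single RARα-KO CTL held 615 of the 4981 G2/M UMIs of its genotype. UMIs of 1 cell are not independent, so the intervals on the sums are too narrow, and shares of cells are given beside them.

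**Figure D3:**
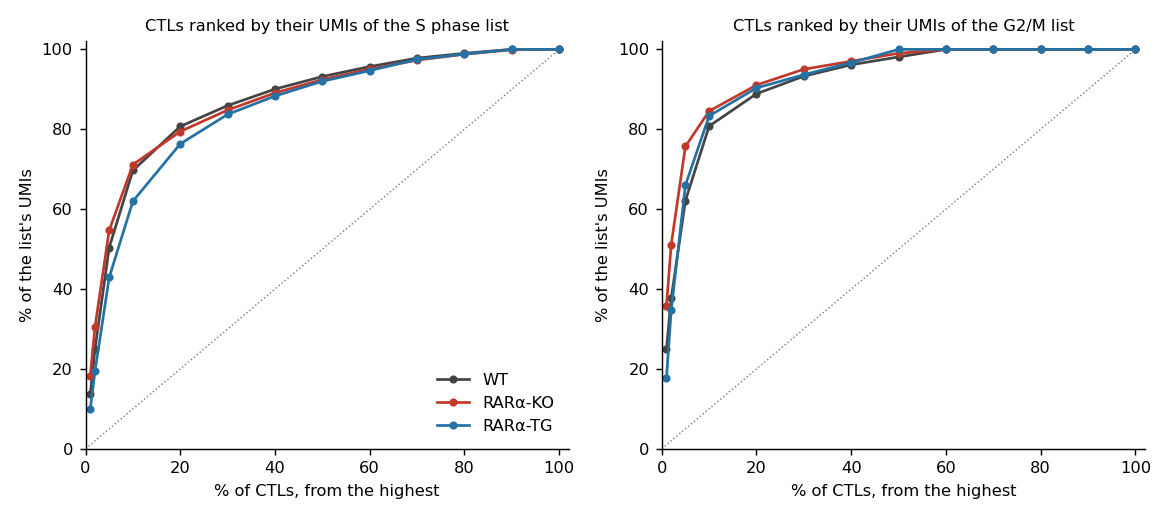
Share of the UMIs of the S phase list (left) and the G2/M list (right) held by CTLs ranked from the highest, in % of UMIs against % of cells, for 3 genotypes. The top 10% of cells holds 62.0% to 71.1% of S phase UMIs and 80.8% to 84.5% of G2/M UMIs.

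To compare cells of unequal depth, each cell was thinned to 1000 UMIs, which left out 2 RARα-TG CTLs. Of the thinned CTLs, 133 of 798 (16.7%, 14.1% to 19.4%), 146 of 993 (14.7%, 12.6% to 17.1%) and 17 of 93 (18.3%, 11.0% to 27.6%) had 2 or more S phase genes, with Clopper-Pearson intervals. For 2 or more G2/M genes the numbers were 52 of 798 (6.52%, 4.90% to 8.46%), 57 of 993 (5.74%, 4.38% to 7.37%) and 6 of 93 (6.45%, 2.40% to 13.5%). The intervals of the genotypes overlapped for both phases. The G2/M share of RARα-TG CTLs rests on 6 cells, too few to show whether the lower sum went with a lower share. Unthinned, the shares were 65.9%, 66.5% and 64.2% for S phase and 23.7%, 18.0% and 17.9% for G2/M genes, at a median depth of 5770, 5397 and 4680 UMIs. The unthinned G2/M shares of RARα-KO and RARα-TG were thus below that of WT, and so was their median depth.

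CTLs with G2/M genes mostly carried S phase genes too. After thinning, 38, 40 and 4 CTLs had 2 or more genes of both lists, 95, 106 and 13 of the S phase list only and 14, 17 and 2 of the G2/M list only. The cells near the limit were many, since 120, 149 and 14 CTLs had exactly 1 G2/M gene and 24, 23 and 5 had exactly 2. CTLs with 2 or more G2/M genes were deeper before thinning than the others, with a median of 11166 against 5630.5 UMIs in WT and 12854 against 5226 in RARα-KO. Among thinned CTLs, a Mki67 UMI was found in 28 of 798 (3.51%, 2.34% to 5.03%), 28 of 993 (2.82%, 1.88% to 4.05%) and 2 of 93 (2.15%, 0.262% to 7.55%), and unthinned in 12.3%, 9.67% and 7.37%.

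Neutrophils do not divide, and the neutrophil-like cluster is given as a class of cells expected to be without cycling transcripts. After thinning, 0, 0 and 0 of its 9, 34 and 9 cells had 2 or more S phase genes, which at 3 cells of the total allows shares of up to 33.3%, 8.82% and 33.3%. For G2/M genes the numbers were 0, 0 and 1. Their median depth was 1691.5, 2059 and 1551.5 UMIs. The upper Clopper-Pearson bounds for S phase genes were 33.6%, 10.3% and 33.6%. The S phase share of RARα-KO CTLs, 14.7%, was above both limits for its genotype. Slbp had 0 UMIs in RARα-KO neutrophil-like cells but was found in 598 RARα-KO CTLs. The limits thus cannot give the background of T cells that do not divide. The other S phase shares and the G2/M shares of CTLs were below what these few cells allow.

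**Figure D4:**
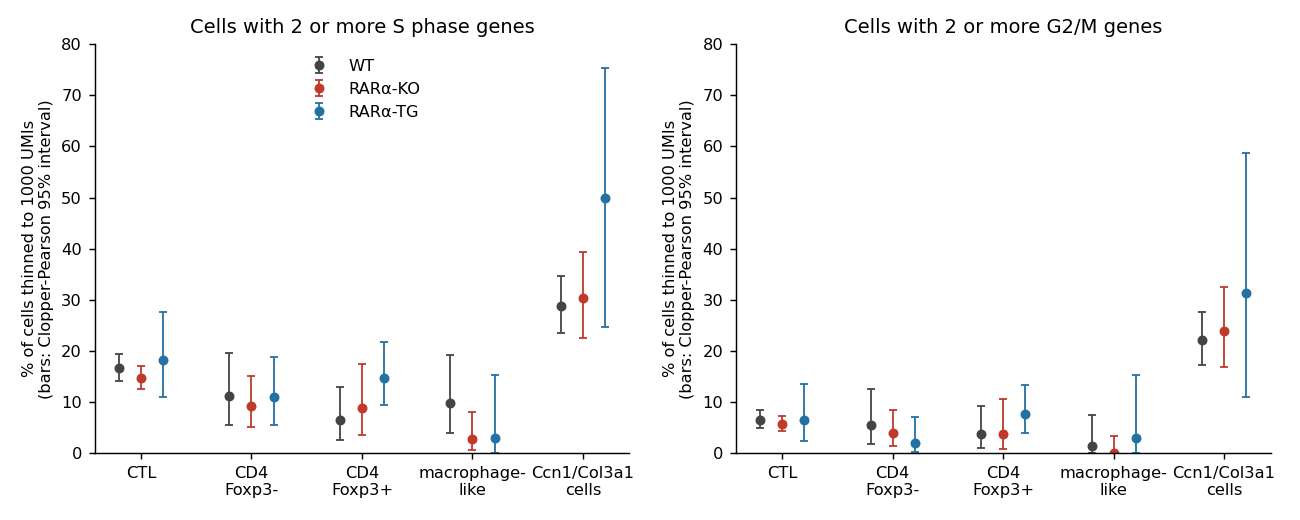
Share of cells with 2 or more S phase genes (left) and 2 or more G2/M genes (right) after thinning to 1000 UMIs per cell, for 5 cell classes and 3 genotypes, with bars for the Clopper-Pearson 95% interval. Within each T cell class the intervals of the genotypes overlap, and Ccn1/Col3a1 cells have the highest shares.

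Clonotype size was compared within CTLs, since expanded clonotypes have divided in the past. CTLs in clonotypes of 1 cell numbered 126, 94 and 82, and those in clonotypes of 2 to 9 cells 194, 209 and 13. Clonotypes of 10 or more cells held 478 WT and 690 RARα-KO CTLs, and 0 RARα-TG CTLs. The S phase list was at 1255, 1503 and 1287 CPM in clonotypes of 1 cell, at 1615, 1179 and 1761 CPM in clonotypes of 2 to 9 cells and at 1279 and 1352 CPM in those of 10 or more for WT and RARα-KO. The order of the sizes differed between WT and RARα-KO, but it depended on single cells and on the weighting. Without the cell with the most S phase UMIs in each group, the log2 ratio of 10 or more cells against 1 cell was 0.20 in WT and 0.23 in RARα-KO. With equal weight for each cell it was 0.31 and -0.0042, and with equal weight for each clonotype 0.82 and 0.23.

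The G2/M sum was lower in clonotypes of 10 or more cells than in clonotypes of 1 cell in WT and RARα-KO, but this direction depended on single cells and on the weighting. The list was at 961, 880.2 and 568 CPM in clonotypes of 1 cell, at 814, 858 and 808 CPM in those of 2 to 9 cells and at 638 and 689 CPM in those of 10 or more for WT and RARα-KO. The log2 ratio of 10 or more cells against 1 cell was -0.59 (-0.71 to -0.47) in WT and -0.35 (-0.49 to -0.21) in RARα-KO. Without the cell with the most G2/M UMIs in each group the ratio was 0.26 (0.091 to 0.43) in WT and -0.054 (-0.21 to 0.11) in RARα-KO. In WT it was also above 0 with a T cell cluster required, 0.42 (0.25 to 0.60), thinned to 1000 UMIs, 0.063 (-0.38 to 0.53), and without the 5% of cells with the most UMIs, 1.56 (1.28 to 1.85). With equal weight for each cell it was 0.50 in WT and -0.25 in RARα-KO, and with equal weight for each clonotype 1.03 and 0.28. Thinned CTLs with 2 or more G2/M genes in WT and RARα-KO were 6 of 126 (4.76%, 1.77% to 10.1%) and 5 of 94 (5.32%, 1.75% to 12.0%) for clonotypes of 1 cell and 27 of 478 (5.65%, 3.76% to 8.11%) and 41 of 690 (5.94%, 4.30% to 7.97%) for clonotypes of 10 or more, with overlapping intervals.

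For 10 or more cells against 1 cell in WT CTLs, of the S phase genes 20 passed, with 0 higher and 3 lower (Cdt1, Fbxo5 and Rrm1), and of the G2/M genes 15 passed, with 0 higher and 8 lower (Nusap1, Cenpe, Ube2c, Mki67, Cdk1, Ccna2, Aurkb and Cenpf), where 11.7% of all 6663 genes that passed were higher and 8.79% lower. In RARα-KO, of the S phase genes 18 passed, with 0 higher and 2 lower (Fbxo5 and Cdt1), and of the G2/M genes 12 passed, with 0 higher and 2 lower (Kif23 and Ube2c), where 6.28% of all 5809 genes that passed were higher and 7.83% lower. When the cell with the most UMIs of the gene was left out of each group, 1 of the 3 S phase and 2 of the 8 G2/M genes were still called lower in WT, and 0 of the 2 and 1 of the 2 in RARα-KO. Newly called higher were 4 S phase and 3 G2/M genes in WT, and 6 S phase and 3 G2/M genes in RARα-KO. Among them were Ube2c in WT, at 1.05 (0.16 to 2.09) on the log2 scale, and Fbxo5 in RARα-KO, at 0.83 (-0.35 to 2.31). In both genotypes more of these genes were then called higher than lower. The share of all genes was not recomputed without the top cells.

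Cells with cycling transcripts were spread over many clonotypes. Thinned CTLs with 2 or more genes of either list numbered 147 in WT, in 66 of 197 clonotypes, 163 in RARα-KO, in 66 of 173, and 19 in RARα-TG, in 18 of 87. The clonotype with the most such cells held 10 among its 36 CTLs in WT and 29 among its 116 CTLs in RARα-KO. Over the 19 WT clonotypes with 10 or more CTLs the share ranged from 3.45% to 37.5% with a median of 18.2%, and over the 21 of RARα-KO from 0% to 37.5% with a median of 15.1%.

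**Figure D5:**
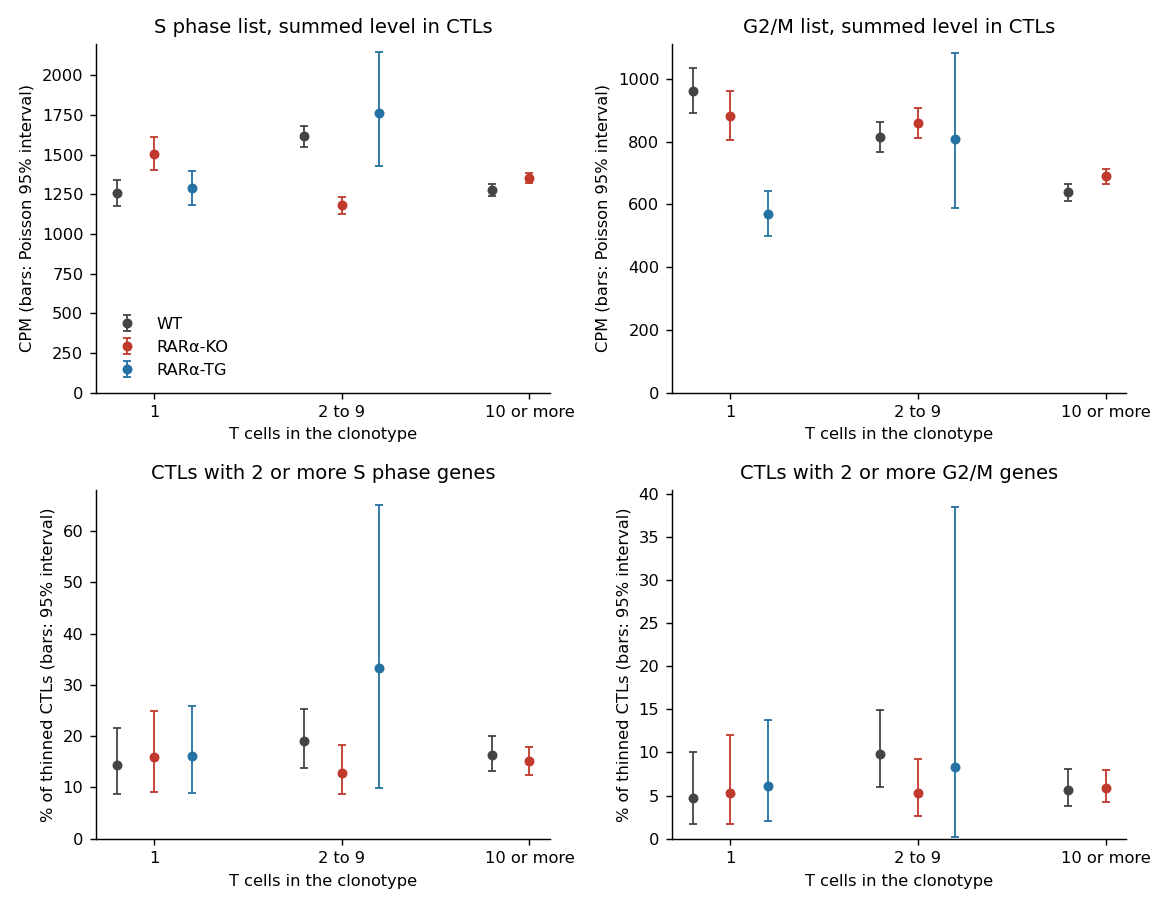
S phase (left) and G2/M (right) transcripts of CTLs by the number of T cells in the clonotype, as summed CPM with Poisson 95% intervals and as the share of thinned CTLs with 2 or more genes and Clopper-Pearson 95% intervals. G2/M levels are lowest in the largest clonotypes of WT and RARα-KO, while the shares of cells overlap, and RARα-TG has no CTL in clonotypes of 10 or more cells.

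CD4 T cells without Foxp3 had a level S phase list and a G2/M list that was highest in WT. The S phase genes were at 918 (829 to 1013), 922 (857 to 989.6) and 891 (806 to 983) CPM. The G2/M genes were at 678 (602 to 760.4), 364 (323 to 407) and 266 (219.8 to 318) CPM, from 291, 299 and 118 UMIs, and the log2 ratios were -0.90 (-1.14 to -0.66) and -1.35 (-1.67 to -1.04). Without the cell with the most G2/M UMIs in each group they were -0.81 and -1.55. Thinned cells with 2 or more G2/M genes were 5 of 89 (5.62%, 1.85% to 12.6%), 6 of 151 (3.97%, 1.47% to 8.45%) and 2 of 100 (2.0%, 0.243% to 7.04%), with overlapping intervals. Macrophage markers were also highest in the WT cells of this gate, at 239.9 (9 of 10 genes found), 7.29 (3 of 10 genes found) and 18.0 (3 of 10 genes found) CPM, and so were dendritic cell markers, at 100.2, 21.9 and 9.0 CPM. With T cells limited to those that also fell in a T cell cluster, the G2/M log2 ratios were -0.95 and -1.39.

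Ube2c had the lowest G2/M log2 ratios in this class. It was at 121 (52 UMIs in 6 cells), 18.2 (15 UMIs in 5 cells) and 2.25 (1 UMI in 1 cell) CPM, with 24 UMIs in 1 WT cell, and its log2 ratios were -2.73 (-3.67 to -1.88) and -5.75 (-11.08 to -3.21). Cenpa was spread over more cells, at 184 (79 UMIs in 32 cells), 119 (98 UMIs in 51 cells) and 65.3 (29 UMIs in 20 cells) CPM, with log2 ratios of -0.63 (-1.07 to -0.18) and -1.50 (-2.16 to -0.87). Mki67 was at 53.6 (23 UMIs in 8 cells), 24.3 (20 UMIs in 13 cells) and 31.5 (14 UMIs in 8 cells) CPM, with log2 ratios of -1.14 (-2.08 to -0.21) and -0.77 (-1.84 to 0.25). Birc5 was on the other side of WT in RARα-KO, at 18.6 (8 UMIs in 4 cells), 32.8 (27 UMIs in 5 cells) and 18.0 (8 UMIs in 1 cell) CPM.

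By the count rule in CD4 T cells without Foxp3, of the S phase genes 13 passed, with 2 higher (Pclaf and Mcm3) and 1 lower (Rrm1) for RARα-KO, and of the G2/M genes 6 passed, with 1 higher (Birc5) and 3 lower (Ube2c, Mki67 and Cenpa), where 7.83% of all 5236 genes that passed were higher and 11.3% lower. For RARα-TG, of the S phase genes 12 passed, with 2 higher (Mcm3 and Gins2) and 1 lower (Tyms), and of the G2/M genes 5 passed, with 0 higher and 3 lower (Ube2c, Cenpa and Mki67), where 10.9% of all 5358 genes that passed were higher and 11.5% lower. With the top cell of the gene left out of each group, the G2/M calls left were 1 of the 3 lower genes and 0 higher genes in RARα-KO (Birc5, Mki67 and Cenpa were lost) and 2 of the 3 lower genes in RARα-TG (Mki67 was lost). With newly called genes, 3 G2/M genes were then lower in RARα-TG.

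CD4 T cells with Foxp3 had the lowest G2/M level in WT. The G2/M genes were at 482 (427 to 542), 897 (815 to 985) and 683 (625 to 745) CPM, from 278, 438 and 513 UMIs, with log2 ratios of 0.90 (0.68 to 1.12) and 0.50 (0.29 to 0.72). The S phase genes were at 1015 (935 to 1101), 1335 (1234 to 1441) and 932 (864 to 1004) CPM, with log2 ratios of 0.40 (0.23 to 0.56) and -0.12 (-0.28 to 0.037). A single RARα-KO cell held 203 of the 438 G2/M UMIs. Without the cell with the most UMIs of the list in each group, the log2 ratios of RARα-KO were 0.67 for G2/M and 0.14 for S phase genes, and without the 5% of cells with the most UMIs they were -0.024 and -0.035. Thinned to 1000 UMIs per cell, the G2/M ratio of RARα-KO was 0.78 (0.094 to 1.47), and with equal weight for each cell it was 0.55. The S phase ratio of RARα-KO was -0.48 thinned and 0.0050 with equal weight for each cell, so its direction depended on the setting.

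Of thinned cells with Foxp3, 4 of 107 (3.74%, 1.03% to 9.30%), 3 of 79 (3.80%, 0.790% to 10.7%) and 11 of 142 (7.75%, 3.93% to 13.4%) had 2 or more G2/M genes, and 7 of 107 (6.54%, 2.67% to 13.0%), 7 of 79 (8.86%, 3.64% to 17.4%) and 21 of 142 (14.8%, 9.39% to 21.7%) had 2 or more S phase genes. Both shares were highest in RARα-TG, and the intervals of the genotypes overlapped. Mki67 was at 50.2 (29 UMIs in 15 cells), 73.7 (36 UMIs in 8 cells) and 121 (91 UMIs in 20 cells) CPM, with log2 ratios of 0.55 (-0.19 to 1.31) and 1.27 (0.65 to 1.93). Birc5 was at 17.3 (10 UMIs in 5 cells), 59.4 (29 UMIs in 3 cells) and 53.3 (40 UMIs in 10 cells) CPM, with log2 ratios of 1.78 (0.70 to 2.98) and 1.62 (0.60 to 2.79). Ube2c had 41 UMIs in RARα-KO, of which 34 came from 1 cell. Rrm2 was at 62.4, 73.7 and 21.3 CPM, and its log2 ratio for RARα-TG was -1.55 (-2.50 to -0.66).

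For RARα-KO against WT cells with Foxp3, of the S phase genes 15 passed, with 6 higher (Uhrf1, Tk1, Rrm1, Pclaf, Mcm4 and Tyms) and 0 lower, and of the G2/M genes 9 passed, with 6 higher (Birc5, Ccna2, Ube2c, Top2a, Ccnb2 and Cenpa) and 0 lower, where 8.71% of all 5616 genes that passed were higher and 10.9% lower. For RARα-TG, of the S phase genes 15 passed, with 2 higher (Gins2 and Rrm1) and 2 lower (Rrm2 and Mcm7), and of the G2/M genes 9 passed, with 4 higher (Birc5, Mki67, Ccnb2 and Ccna2) and 0 lower, where 12.3% of all 6122 genes that passed were higher and 9.31% lower. After leaving out the top cell of the gene in each group, 2 of the 6 S phase and 2 of the 6 G2/M genes were still called higher in RARα-KO, and for some of the others too few UMIs were left for a call. In RARα-TG 1 of the 2 higher S phase genes, 1 of the 2 lower S phase genes and 3 of the 4 higher G2/M genes were still called. With newly called genes, RARα-TG then had 2 higher and 2 lower S phase genes and 4 higher G2/M genes, and RARα-KO had 1 lower S phase gene.

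Within each genotype, CTLs had a higher S phase level than CD4 T cells without Foxp3. The log2 ratio of CTLs against these cells for the S phase list was 0.57 (0.42 to 0.72), 0.52 (0.42 to 0.63) and 0.59 (0.41 to 0.77) for WT, RARα-KO and RARα-TG. For the G2/M list it was 0.099 (-0.073 to 0.28), 1.03 (0.86 to 1.20) and 1.16 (0.85 to 1.48). Rrm2 was at 87.6, 78.3 and 45.6 CPM in CTLs and at 23.3, 30.4 and 22.5 CPM in CD4 T cells without Foxp3. Top2a was at 109.6, 97.5 and 103 CPM and at 53.6, 41.3 and 40.5 CPM. Slbp had log2 ratios of -0.090 (-0.40 to 0.24), 0.099 (-0.14 to 0.34) and 0.12 (-0.30 to 0.54), nearer to 0 than the S phase sum.

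In WT, of the S phase genes 16 passed, with 8 higher (Tk1, Rrm2, Mcm3, Pclaf, Mcm5, Uhrf1, Mcm2 and Rrm1) and 0 lower in CTLs, and of the G2/M genes 10 passed, with 3 higher (Birc5, Top2a and Nusap1) and 1 lower (Ube2c), where 8.85% of all 5144 genes that passed were higher and 15.5% lower. In RARα-KO the S phase genes gave 13 higher and 0 lower of 22 that passed, and the G2/M genes 12 and 0 of 15, where 11.9% of all 6913 genes that passed were higher and 8.98% lower. In RARα-TG they gave 10 and 0 of 15, and 5 and 0 of 6, where 10.8% of all 5307 genes that passed were higher and 21.4% lower. Leaving out the top cell of the gene in each group, 8 of the 8, 13 of the 13 and 7 of the 10 S phase genes were still called higher in CTLs, and 2 of the 3, 11 of the 12 and 3 of the 5 G2/M genes. With newly called genes, 12, 16 and 8 S phase genes and 5, 12 and 3 G2/M genes were then higher. The thinned shares of CD4 T cells without Foxp3 with 2 or more S phase genes were 11.2%, 9.27% and 11.0%, below those of CTLs but with intervals that overlapped theirs.

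Macrophage-like cells had lower levels of both lists than each T cell class of the same genotype. Their S phase list was at 413 (361 to 469), 370.1 (329 to 415) and 317 (249 to 396) CPM. The G2/M list was at 232 (194 to 276), 74.8 (56.8 to 96.7) and 149.97 (105 to 208) CPM, from 130, 58 and 36 UMIs, and the log2 ratio of RARα-KO was -1.63 (-2.11 to -1.18). A single WT cell held 75 of the 130 UMIs, and without the cell with the most in each group the ratio was -0.57. Pclaf, a partner of the replication clamp, had 35 UMIs in WT, of which 32 came from 1 cell, against 0 in RARα-KO and 3 in RARα-TG. Slbp was at 139 (44 cells), 151 (53 cells) and 95.8 (13 cells) CPM. After thinning, 1, 0 and 1 cells had 2 or more G2/M genes.

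Ccn1/Col3a1 cells had the highest G2/M levels of the classes shown. Their S phase genes were at 1671 (1643 to 1699), 1657 (1617 to 1698) and 1506 (1371 to 1650.3) CPM, and their G2/M genes at 1684 (1656 to 1712), 2073 (2029 to 2118) and 2078 (1919 to 2246) CPM. The G2/M log2 ratio was 0.30 (0.26 to 0.34) for RARα-KO and 0.30 (0.19 to 0.42) for RARα-TG, where it was -0.57 without the cell with the most G2/M UMIs in each group. For RARα-KO it was 0.21 without that cell and 0.070 without the 5% of cells with the most UMIs. At a median depth of 28976, 29739 and 17553.5 UMIs, thinned cells with 2 or more G2/M genes were 60 of 271 (22.1%, 17.3% to 27.6%), 30 of 125 (24.0%, 16.8% to 32.5%) and 5 of 16 (31.2%, 11.0% to 58.7%), with overlapping intervals. The genotype is that of the mouse that carried the tumor.

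In Ccn1/Col3a1 cells of RARα-KO against WT, of the S phase genes 23 passed, with 0 higher and 0 lower, and of the G2/M genes 23 passed, with 3 higher (Cdc20, Cenpf and Kif20a) and 0 lower, where 5.14% of all 10474 genes that passed were higher and 4.24% lower. Cdc20, an activator of the APC/C, was at 72.8 (611 UMIs in 81 cells) and 119 (474 UMIs in 45 cells) CPM in these 2 genotypes, WT first, with a log2 ratio of 0.71 (0.53 to 0.88). Cenpf, a kinetochore protein, was at 92.1 (773 UMIs in 81 cells) and 147 (585 UMIs in 35 cells) CPM, with a log2 ratio of 0.67 (0.51 to 0.83). Kif20a, a kinesin of cytokinesis, was at 22.1 (185 UMIs) and 33.4 (133 UMIs) CPM, with a log2 ratio of 0.60 (0.27 to 0.93). A single RARα-KO cell held 73 of the Cdc20, 87 of the Cenpf and 25 of the Kif20a UMIs. Without the top cell of the gene in each group the log2 ratios were 0.58 (0.39 to 0.77), 0.55 (0.38 to 0.71) and 0.38 (0.018 to 0.73), and 0 of the 3 genes were called.

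Other genes of the cell cycle were counted from lists without members. In RARα-KO against WT CTLs, 30 genes of a second S phase list of 30 passed with 0 higher and 0 lower, and 39 genes of a second G2/M list of 40 passed with 2 higher and 0 lower, against 8.03% higher and 6.26% lower of all genes. The 2 genes were Psrc1, at 2.71 (15 UMIs), 8.05 (54 UMIs) and 7.93 (4 UMIs) CPM with a log2 ratio of 1.57 (0.73 to 2.50), and Gtse1, at 3.79 (21 UMIs), 9.99 (67 UMIs) and 0 (0 UMIs) CPM with a log2 ratio of 1.40 (0.67 to 2.18). Both encode proteins that act on microtubules. Without the top cell of the gene in each group the ratios were 1.71 (0.78 to 2.76) and 1.47 (0.67 to 2.35). As sums, the second S phase list had log2 ratios of -0.052 (-0.099 to -0.0050) and -0.076 (-0.20 to 0.046), and the second G2/M list of 0.0011 (-0.045 to 0.047) and 0.054 (-0.063 to 0.17). In CD4 T cells the second G2/M list had log2 ratios of -0.081 (-0.24 to 0.078) and -0.14 (-0.33 to 0.040) without Foxp3, and of 0.13 (-0.027 to 0.29) and 0.13 (-0.013 to 0.27) with Foxp3. These were all nearer to 0 than those of the first G2/M list.

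Of a list of 30 genes of G1 and quiescence, 28 passed in RARα-KO CTLs, of which 5 were higher (Cdkn1a, Cdc25b, Ccnd1, Myc and Tob1) and 1 was lower (Cdc25a), against 8.03% and 6.26% of all genes. Cdkn1a, which encodes the Cdk inhibitor p21, was at 84.3 (467 UMIs in 182 cells), 239 (1603 UMIs in 387 cells) and 35.7 (18 UMIs in 13 cells) CPM, with log2 ratios of 1.503 (1.35 to 1.65) and -1.24 (-2.01 to -0.57). Myc, a transcription factor of growth, was at 22.9 (127 UMIs), 37.4 (251 UMIs) and 3.96 (2 UMIs) CPM, with log2 ratios of 0.71 (0.39 to 1.03) and -2.53 (-5.59 to -0.65). Both genes were above WT in RARα-KO CTLs and below it in RARα-TG CTLs. Without the top cell of the gene in each group the RARα-KO ratios were 1.52 (1.37 to 1.68) and 0.61 (0.28 to 0.96), while in RARα-TG Myc had 1 UMI left and did not pass. In RARα-TG CTLs 17 passed, 4 were higher (Ccnd2, Ccnd3, Cdkn1b and Cdc25b) and 5 lower (Myc, Cdkn1a, Cdkn2d, E2f4 and Cdk6), against 9.34% and 14.9% of all genes. In CD4 T cells without Foxp3, Cdkn1a was at 163 (70 UMIs), 338 (278 UMIs) and 119 (53 UMIs) CPM, and its log2 ratio for RARα-KO was 1.05 (0.67 to 1.45). Macrophage markers were at 28.4, 113 and 37.6 CPM in CTLs, against 17496, 11201 and 21124 CPM in macrophage-like cells, and their part in these values was not tested.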

How the data were processed

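Tumor cells of 3 genotypes were pooled by antibody hashtag into 1 10x Genomics 5′ library with TCR sequences. The deposited values are raw UMI counts per gene and barcode, which the authors made with Cell Ranger (6.1.0 per the submitters' processing notes, while the header of the matrix names another major version) on mm10, and a table of TCR clonotypes. Of 730308 barcodes holding 46394322 gene UMIs, 5585 were called cells (median 4823 UMIs, at least 500). HTODemux (Seurat 5.3.0, R 4.3.3, quantile 0.99) gave 4925 with 1 hashtag. The 426 doublets between genotypes and 234 cells without a hashtag were left out, and doublets within a genotype remain. Other classes were Leiden clusters (scanpy 1.11.5, Python 3.11.15) made without the cell cycle lists.

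UMIs were summed per class and genotype, and CPM, log2 ratios of CPM and shares of cells were computed with exact 95% intervals, which cover counting error only. A ratio against 0 used a floor of 3 UMIs, and the limit for a share of 0 is 3 cells of the total. There is no test, since each genotype is 1 sample. The code for ratios was tested on simulated data. Genes were named by rule: in each of 13 role groups the member with the most UMIs in T cells, and in each list the highest and lowest log2 ratio in CTLs among members that passed the count filter. Other named genes were chosen after their values were seen. The members and lists were chosen with earlier results of these data known. Loci come from RefSeq (GRCm38.p6), which held all 49 members.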

Additional observations from a re-analysis of the deposited data

Results flagged for a closer look

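The G2/M list moved in opposite directions in 2 classes of T cells under the same contrast, and this difference between classes was not tested, since each genotype is 1 sample. For RARα-KO against WT the log2 ratio was 0.90 in CD4 T cells with Foxp3 and -0.90 in CD4 T cells without Foxp3. A single RARα-KO cell with Foxp3 held 203 of the G2/M UMIs of its class. Without the 5% of cells with the most UMIs the value with Foxp3 was -0.024, while it was 0.78 (0.094 to 1.47) thinned to 1000 UMIs per cell and 0.55 with equal weight for each cell. For RARα-TG against WT it was 0.50 in CD4 T cells with Foxp3, -1.35 in CD4 T cells without Foxp3 and -0.29 in CTLs. Without the cell with the most G2/M UMIs in each group these values were 0.84, -1.55 and -0.40. With the second G2/M list, which holds no member, they were 0.13, -0.14 and 0.054. For RARα-KO against WT that list gave 0.13 with Foxp3 and -0.081 without Foxp3. The WT cells of each class are shared by both contrasts.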

How the results depend on the processing

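The 24 log2 ratios of the summed lists were recomputed, each under the 9 to 13 of 14 alternatives that apply to it. Of the 268 values 170 stayed inside the counting interval of the reported value, 69 moved out of it and 29 changed sign where the reported interval excluded 0. Values by clonotype size are clonotypes of 10 or more cells against 1 cell, and the others are against WT. Unless the setting's own construction shows it, the cause of a move was not tested. With T cells defined by cluster, the log2 ratios that moved were for S phase genes 0.035 in RARα-KO CTLs, and for G2/M genes -0.57 in RARα-KO CD4 T cells without Foxp3 and 0.42 in WT CTLs by clonotype size. With both a clonotype and a T cell cluster required, it was for G2/M genes 0.42 in WT CTLs by clonotype size. Leaving mitochondrial, ribosomal and TCR genes out of the total gave for S phase genes -0.093 in RARα-KO CTLs. Thinned to 1000 UMIs per cell, the values were for S phase genes 0.028 in RARα-KO CTLs, -0.48 in RARα-KO and 0.26 in RARα-TG CD4 T cells with Foxp3, -0.58 in RARα-KO macrophage-like cells, -0.099 in RARα-KO and 0.52 in RARα-TG Ccn1/Col3a1 cells and 0.16 in WT and 0.079 in RARα-KO CTLs by clonotype size, and for G2/M genes -1.11 in RARα-KO and 0.36 in RARα-TG macrophage-like cells, 0.35 in RARα-KO and 0.18 in RARα-TG Ccn1/Col3a1 cells and 0.063 in WT CTLs by clonotype size. Without the 5% of cells with the most UMIs they were for S phase genes -0.18 in RARα-KO and 0.19 in RARα-TG CTLs, -0.18 in RARα-KO CD4 T cells without Foxp3, -0.035 in RARα-KO CD4 T cells with Foxp3, 0.33 in RARα-KO macrophage-like cells, 0.026 in RARα-TG Ccn1/Col3a1 cells and 0.91 in WT and 0.12 in RARα-KO CTLs by clonotype size, and for G2/M genes -0.46 in RARα-KO and -0.66 in RARα-TG CTLs, -1.83 in RARα-KO and -2.05 in RARα-TG CD4 T cells without Foxp3, -0.024 in RARα-KO and 0.77 in RARα-TG CD4 T cells with Foxp3, -0.030 in RARα-KO and 1.10 in RARα-TG macrophage-like cells, 0.070 in RARα-KO and -0.29 in RARα-TG Ccn1/Col3a1 cells and 1.56 in WT and -0.56 in RARα-KO CTLs by clonotype size. A CTL gate with Cd8b1 gave for S phase genes -0.23 in RARα-TG CTLs and 0.16 in WT CTLs by clonotype size, and for G2/M genes -0.50 in RARα-TG CTLs and -0.44 in WT CTLs by clonotype size. Equal weight for each cell gave for S phase genes 0.0050 in RARα-KO CD4 T cells with Foxp3, 0.19 in RARα-KO macrophage-like cells, 0.17 in RARα-TG Ccn1/Col3a1 cells and 0.31 in WT and -0.0042 in RARα-KO CTLs by clonotype size, and for G2/M genes -0.30 in RARα-KO CTLs, 0.55 in RARα-KO CD4 T cells with Foxp3, -0.79 in RARα-KO and 0.72 in RARα-TG macrophage-like cells, 0.14 in RARα-KO Ccn1/Col3a1 cells and 0.50 in WT CTLs by clonotype size. Weighting clonotypes equally gave for S phase genes -0.30 in RARα-KO CD4 T cells without Foxp3, -0.035 in RARα-KO CD4 T cells with Foxp3 and 0.82 in WT and 0.23 in RARα-KO CTLs by clonotype size, and for G2/M genes -0.50 in RARα-TG CTLs, 0.62 in RARα-KO CD4 T cells with Foxp3 and 1.03 in WT and 0.28 in RARα-KO CTLs by clonotype size. Adding Stmn1, Hmgb2 and Tubb5 to the sum gave for G2/M genes 0.093 in RARα-TG CTLs, -0.39 in RARα-KO and -0.66 in RARα-TG CD4 T cells without Foxp3, 0.20 in RARα-TG CD4 T cells with Foxp3, -0.50 in RARα-KO macrophage-like cells, 0.073 in RARα-KO and 0.059 in RARα-TG Ccn1/Col3a1 cells and -0.33 in WT CTLs by clonotype size. The second lists, which hold no member, gave for S phase genes 0.058 in RARα-KO and 0.11 in RARα-TG Ccn1/Col3a1 cells and -0.043 in RARα-KO CTLs by clonotype size, and for G2/M genes 0.054 in RARα-TG CTLs, -0.081 in RARα-KO and -0.14 in RARα-TG CD4 T cells without Foxp3, 0.13 in RARα-KO and 0.13 in RARα-TG CD4 T cells with Foxp3, -0.18 in RARα-KO and -0.011 in RARα-TG macrophage-like cells, 0.00079 in RARα-KO and 0.13 in RARα-TG Ccn1/Col3a1 cells and -0.30 in WT and -0.18 in RARα-KO CTLs by clonotype size. Hashtags called at the 0.95 quantile gave for S phase genes -0.079 in WT CTLs by clonotype size, and for G2/M genes -0.13 in RARα-TG Ccn1/Col3a1 cells. Leaving out the 1 cell with the most UMIs of the list in each group, an alternative chosen after seeing the data, gave for S phase genes 0.14 in RARα-KO CD4 T cells with Foxp3, 0.21 in RARα-KO macrophage-like cells, -0.47 in RARα-TG Ccn1/Col3a1 cells and 0.20 in WT and 0.23 in RARα-KO CTLs by clonotype size, and for G2/M genes 0.67 in RARα-KO and 0.84 in RARα-TG CD4 T cells with Foxp3, -0.57 in RARα-KO and 0.10 in RARα-TG macrophage-like cells, 0.21 in RARα-KO and -0.57 in RARα-TG Ccn1/Col3a1 cells and 0.26 in WT and -0.054 in RARα-KO CTLs by clonotype size. Counting members past 2-fold in place of 1.5-fold in CTLs gave 0 higher G2/M genes in RARα-KO in place of 2, and in RARα-TG 1 lower S phase gene in place of 2 and 2 lower G2/M genes in place of 5. With no filter on low counts the numbers in RARα-TG were 6 lower S phase genes, 3 higher G2/M genes in place of 1 and 9 lower G2/M genes. Without the 1 cell with the most UMIs of the gene in each group, an alternative chosen after seeing the data, there was 1 higher G2/M gene in RARα-KO (Bub1b, while Plk1 and Ccnb1 were lost) and 4 lower S phase genes in RARα-TG. Limiting the sums to cells of 1000 or more UMIs kept all 24 ratios inside their intervals (16 of them had the same value). Clustering with the cell cycle genes could bear only on the 8 ratios of macrophage-like and Ccn1/Col3a1 cells, and these stayed inside theirs. Depth limits RARα-TG CTLs, where 11 of 23 G2/M genes and 6 of 23 S phase genes did not reach the count needed for a call. No paired analysis was possible because each genotype is 1 sample.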
